A study of Mus musculus with 6 samples.

Results

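TERT is the protein subunit of telomerase that synthesizes telomeric DNA, and its position on chromatin was mapped here by CUT&Tag in mouse neurons. The genes described are the core of the Notch pathway: the receptor genes Notch1, Notch2 and Notch3, the ligand genes Dll1, Jag1 and Jag2, the gene of the DNA-binding effector Rbpj, and the target genes Hes1, Hes5 and Hey1. Their regions were taken as the rows of the 3 deposited region lists whose assigned gene is 1 of these 10 genes. This gave 26 of the 41527 regions on chromosomes 1 to 19, X and Y. No limit on score or width entered the choice. The gene set was, however, selected on region counts, classes and distances already seen in these lists, so these values are given as descriptions without tests.

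Notch signalling passes between touching cells. A ligand of the Delta or Jagged family on 1 cell pulls on a Notch receptor of its neighbour, proteases release the receptor's intracellular part, and this part joins Rbpj on DNA to switch on Hes and Hey repressor genes. In the embryonic brain the pathway is known for keeping neural progenitors from turning into neurons, and in neurons it also acts on neurite growth and synapses.

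The cells were primary neurons grown from the cortex and hippocampus of C57BL/6 embryos at embryonic day 15 to 18. In 3 samples they received vehicle (dimethyl sulfoxide) and in 3 samples 2 µM BIBR1532, a small-molecule inhibitor of telomerase, for 24 h, and all 6 were processed with the same anti-TERT antibody. The treatment field of the labels calls the vehicle samples untreated, whereas the treatment protocol names the vehicle. The groups otherwise share strain, tissue and age.

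The lists were made from the combined libraries of each condition, so each condition is 1 pooled measurement. There are no replicate values for a region, and sequencing depth is unknown here. The lists hold regions common to both conditions (6812), regions with higher signal in the first condition (16153) and regions with higher signal in the second (18562). Because the list names put the 2 µM condition before the 0 µM condition, the first is read here as BIBR1532 and the second as vehicle. This direction is likely but is not stated outright, and it applies to every BIBR1532 or vehicle region below. Each region carries a score, which is the authors' own value. In the condition-specific lists a higher score marks a clearer difference between the pools. In the BIBR1532 list 46.8% of regions share the score 6.34, and in the vehicle list 50.2% share the score 5.19, called tied regions below. No control library was analysed here, and the lists do not measure expression. Neuronal markers could therefore be checked only for regions: 7 of 8 were named by a region, against 7 of 8 markers of neural progenitors, 5 of 6 of astrocytes, 3 of 5 of the oligodendrocyte lineage, 4 of 5 of microglia and 2 of 5 of endothelium. Over all 21887 protein-coding genes the share named by any region was 59.1%.

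Of the 10 genes, 8 were named by a region, against 59.1% of protein-coding genes, and Hes1 and Hes5 were named by none. The 26 regions comprised 14 BIBR1532, 8 vehicle and 4 common regions. BIBR1532 regions named 4 genes (Notch2, Dll1, Jag1 and Rbpj), where 34.5% of protein-coding genes were named by that list. Vehicle regions named 6 genes (Notch1, Notch3, Dll1, Jag1, Hey1 and Rbpj), against 37.5%. Common regions named 3 genes (Notch1, Jag2 and Rbpj), against 23.9%. Thus, by assigned gene, Dll1, Jag1 and Rbpj had regions in both directions. The condition-specific regions of Notch2 lay in the BIBR1532 list and those of Notch1, Notch3 and Hey1 in the vehicle list. Notch3 and Hey1 had 1 condition-specific region each, which can lie in only 1 list, and Notch1 had 2. By position, Notch1 also held 1 BIBR1532 region, assigned to another gene.

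Of the 22 condition-specific regions 14 were from the BIBR1532 list, or 63.6% (exact Clopper-Pearson 95% interval 40.7 to 82.8%, which covers counting error only). Over all 34715 condition-specific regions the share was 46.5%, which lies inside that interval. Of the 22 regions 9 lay within 10 kb of a start site, where 11574 of all 34715 condition-specific regions did. Most of the BIBR1532 regions of these genes lay farther out, as did most condition-specific regions of all genes. Within 10 kb of a start site the members had 3 BIBR1532 and 6 vehicle regions, a share of 33.3%, where the share over all such regions was 49.3%. Without Jag1, which had the most condition-specific regions, the share was 56.2% of 16.

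**Figure D1:**
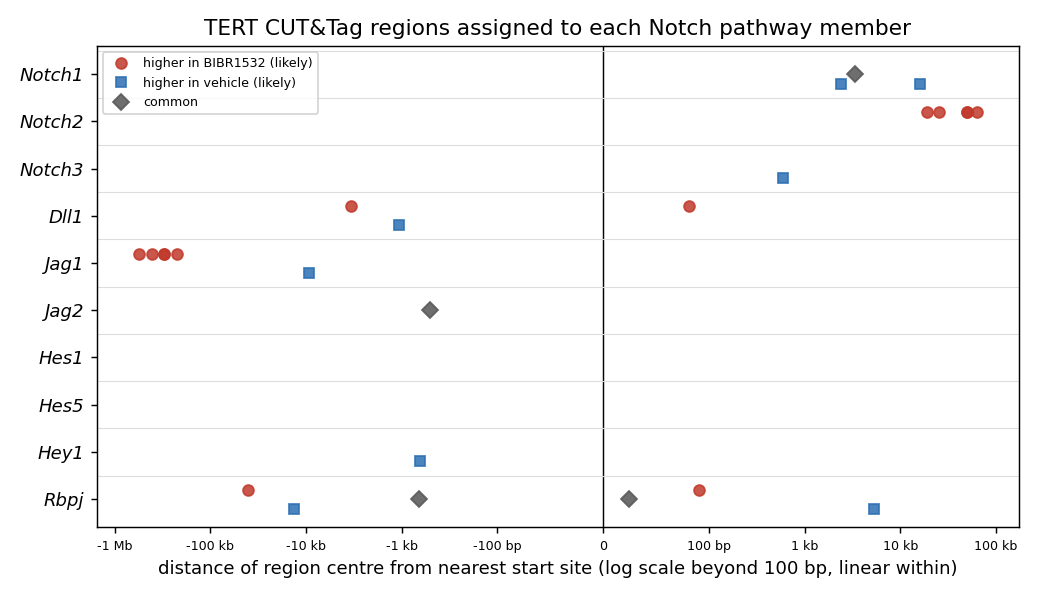
Position of the 26 regions of the 10 genes relative to the assigned start site (horizontal axis, bp to Mb, linear within 100 bp and logarithmic beyond), 1 row per gene, with red circles for BIBR1532, blue squares for vehicle and grey diamonds for common regions. Common regions lie within a few kb of start sites, the 5 BIBR1532 regions of Jag1 lie 224 to 565 kb upstream, and Hes1 and Hes5 have no region.

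Among the receptor genes, Notch1 (chr2:26457902-26503822) had 2 vehicle regions and 1 common region, all in intron 2 of 33. The vehicle region at chr2:26501237-26501670 was 434 bp wide, lay 2.37 kb downstream of the start site and scored 7.79, at percentile 91.1 of its list. The common region at chr2:26500418-26500560 was 143 bp wide and lay 676 bp from it. The other vehicle region, at chr2:26487742-26488195, was 454 bp wide, lay 15.9 kb from the start site and scored 2.06, at percentile 7.08. Shared signal and signal higher in the vehicle pool thus stood side by side in the same intron. A BIBR1532 region also lay inside the gene, at chr2:26485319-26485451 in exon 3 of 34 (score 5.27). The deposited annotation assigned it to the microRNA gene Mir6996, whose start site is nearer.

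Notch2 (chr3:98013538-98150367) had 5 BIBR1532 regions and no vehicle or common region. They lay in intron 1 (scores 6.68 and 3.31), intron 2 (2.42 and 1.36) and intron 4 (6.34, tied) of 33, 18.8 to 63.0 kb downstream of the start site. Another 3 BIBR1532 regions inside Notch2 had been assigned to the neighbouring gene Adam30, since its start site was nearer. These were at chr3:98090623-98090900 in intron 5 (score 14.40), at chr3:98095005-98095309 in intron 5 and at chr3:98103240-98103520 in intron 10 (both tied at 6.34). The first of them scored above 99.4% of its list, and it was the region of highest score within any of the 10 genes. By position, then, the 137 kb gene held 8 BIBR1532 and 0 vehicle regions, over a span of 71.3 kb. Without the tied regions it held 5 and 0. The nearest vehicle region lay 63.6 kb outside the gene and the nearest common region 140 kb outside.

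Counting by position was repeated over all protein-coding genes, a comparison chosen after the Notch2 values were seen and given as a description. Of 87 protein-coding genes with 8 condition-specific regions between their ends, Notch2 was the 1 gene with all of them in 1 list. Of 1439 protein-coding genes that are 100 to 200 kb long, the median gene held 2 condition-specific regions, and 41 (2.85%) held 8 or more. BIBR1532 regions numbered 8 or more in 4 of these genes (0.278%), Notch2 among them. Having no vehicle region was common at this length, in 425 of the 1439 genes. With 1 pooled measurement per condition, the Notch2 count has no replicate check.

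Notch3 (chr17:32120820-32166896), which in the adult is best known from vascular smooth muscle, had 1 vehicle region. It lay at chr17:32166189-32166402 in intron 1 of 32, 595 bp downstream of the start site, was 214 bp wide and scored 7.38, at percentile 89.2 of its list. No BIBR1532 region lay within 96.3 kb of the gene. None of the receptor genes had a region of the promoter class.

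Among the ligand genes, Dll1 (chr17:15367354-15376932), the Delta ligand of neural progenitors, had regions of both directions close together at its start sites. RefSeq lists start sites at positions 15375823 and 15376932, and transcription runs on the minus strand. A BIBR1532 region at chr17:15375677-15375808 began 15 bp downstream of the inner start site. It was 132 bp wide and scored 1.70, at percentile 8.13 of its list. A vehicle region at chr17:15376773-15376991 covered the outer start site, from 59 bp before it to 159 bp after it. This region was 219 bp wide and scored 11.03, at percentile 98.5 of its list and the highest among the vehicle regions of the 10 genes. The deposited annotation measured it from the inner start site, 1.06 kb away, and called it intergenic. A further BIBR1532 region, at chr17:15379142-15379301, lay 3.40 kb upstream of the inner start site and scored 3.57. The vehicle region thus stood between BIBR1532 regions 964 bp to one side and 2150 bp to the other.

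The sequences of both Dll1 start windows are shown because the condition-specific regions end inside them. They are RefSeq sequence of GRCm38.p6 (the mm10 build), minus strand, 5′ to 3′, from 250 bases before the start site through the first 30 transcribed bases. Capitals mark the bases inside the vehicle region for the outer start (chr17:15376903-15377182, 89 bases in capitals) and inside the BIBR1532 region for the inner start (chr17:15375794-15376073, 15 bases in capitals).
Dll1 outer start: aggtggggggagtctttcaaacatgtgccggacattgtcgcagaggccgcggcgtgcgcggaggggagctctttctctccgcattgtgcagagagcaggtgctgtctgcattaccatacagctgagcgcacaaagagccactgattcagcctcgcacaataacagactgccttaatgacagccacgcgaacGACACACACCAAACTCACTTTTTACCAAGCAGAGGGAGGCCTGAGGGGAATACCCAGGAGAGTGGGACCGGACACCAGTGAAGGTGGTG
Dll1 inner start: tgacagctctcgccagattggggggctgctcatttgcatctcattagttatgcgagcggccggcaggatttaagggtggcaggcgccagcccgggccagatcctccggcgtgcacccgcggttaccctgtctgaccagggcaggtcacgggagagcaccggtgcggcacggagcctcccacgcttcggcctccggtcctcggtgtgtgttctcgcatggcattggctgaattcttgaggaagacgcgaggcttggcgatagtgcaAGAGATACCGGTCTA

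Jag1 (chr2:137081451-137116520), a Jagged ligand, had 5 BIBR1532 regions and 1 vehicle region, all intergenic. The vehicle region at chr2:137125494-137126239 was the nearest, 9.35 kb upstream of the start site, was 746 bp wide and carried the tied score. The BIBR1532 regions lay 224, 303, 310, 408 and 565 kb upstream. The nearest of these, at chr2:137339945-137340921, was 977 bp wide, the widest of the 26, and scored 8.39, at percentile 86.8. The other 4 were tied at 6.34 and were 120 to 264 bp wide, and the farthest was annotated as an ERVL-MaLR repeat. The 565 kb between Jag1 and the farthest of these regions hold no other protein-coding gene in RefSeq, and every region there was assigned to Jag1. This stretch held 8.85 BIBR1532 and 1.77 vehicle regions per Mb, against 5.93 and 6.82 over the chromosomes. Its end was set at a BIBR1532 region, so the densities are a description only. The assignment of these regions to Jag1 rests on distance alone.

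Jag2 (chr12:112907803-112929812), the other Jagged ligand gene, had 1 common region and no condition-specific region. It lay in the promoter class at chr12:112929904-112930096, centred 505 bp upstream of the start site, and was 193 bp wide. Its score of 0.0852 was at percentile 42.0 of the common list, in which a low score marks similar signal in the pools. A BIBR1532 region at chr12:112902899-112903529, 4.27 kb beyond the far end of the gene and tied at 6.34, was assigned to Mir6941.

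Rbpj (chr5:53555779-53657445), whose protein carries the Notch intracellular part to DNA, was the gene with the most regions at a promoter. It had 2 common, 2 BIBR1532 and 2 vehicle regions. The common region at chr5:53590235-53590506 covered both RefSeq start sites of the promoter, at 53590346 and 53590486, was 272 bp wide and scored 0.241. The other common region, at chr5:53589612-53589758, was centred 661 bp upstream and scored 0.0367. A BIBR1532 region at chr5:53590507-53590646 began at the base after the end of the first common region, with a gap of 0 bp. It was 140 bp wide, was also of the promoter class and scored 1.40, at percentile 4.94 of its list. Of all BIBR1532 regions 327 (2.02%) touched a common region in this way, and 176 of these (53.8%) were promoters. In the vehicle list 340 regions (1.83%) did so. The Rbpj promoter thus held shared signal over both start sites and a low-scoring BIBR1532 region directly after it.

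Both parts of this site are shown, since the border between shared and condition-specific signal falls just after the inner start site. The sequences are RefSeq, GRCm38.p6, plus strand, 5′ to 3′. In the outer window (chr5:53590096-53590375) the 141 capitals mark the common region. In the inner stretch (chr5:53590456-53590515) the 9 capitals mark the start of the BIBR1532 region, and the bases before them lie in the common region.
Rbpj outer start: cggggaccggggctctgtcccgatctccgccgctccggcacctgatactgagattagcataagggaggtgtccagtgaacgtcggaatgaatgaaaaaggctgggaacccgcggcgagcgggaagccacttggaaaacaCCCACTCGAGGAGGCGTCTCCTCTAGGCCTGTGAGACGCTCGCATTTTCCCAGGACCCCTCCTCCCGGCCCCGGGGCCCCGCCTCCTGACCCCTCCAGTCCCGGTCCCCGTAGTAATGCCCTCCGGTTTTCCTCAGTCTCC
Rbpj inner start: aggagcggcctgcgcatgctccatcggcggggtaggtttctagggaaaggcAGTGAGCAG

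The remaining regions of Rbpj lay away from this promoter. A BIBR1532 region at chr5:53514705-53515193 was intergenic, 40.8 kb upstream of the outermost annotated start site, 489 bp wide and scored 6.51. The vehicle regions, both tied at 5.19, lay 13.5 kb upstream at chr5:53542198-53542372 and in intron 1 of 10 at chr5:53595722-53595875. Another BIBR1532 region lay inside the gene, at chr5:53655337-53655580 in the 3′ UTR (score 6.97), and was assigned to Rnu7.

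**Figure D2:**
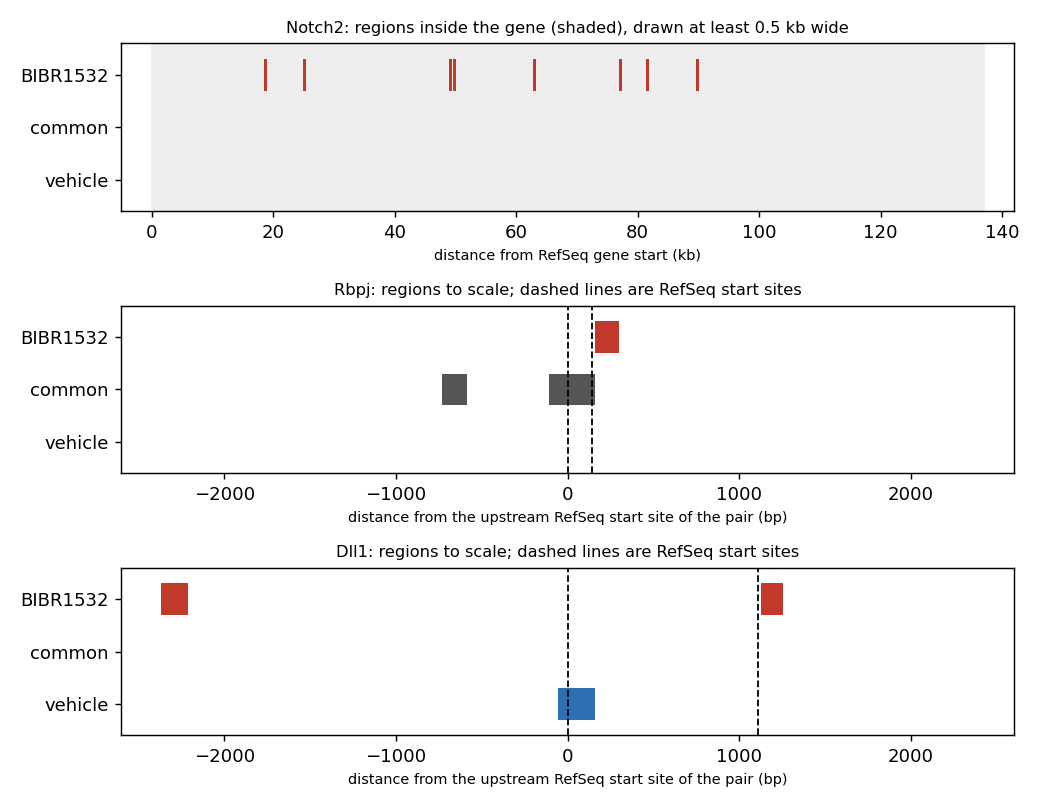
Regions inside Notch2 (top, kb from the gene start, gene shaded) and around the start sites of Rbpj and Dll1 (middle and bottom, bp from the outer start site, dashed lines at the RefSeq start sites), with 1 row per list. Notch2 holds 8 BIBR1532 regions and none of the other lists, the BIBR1532 region of Rbpj begins where the common region ends, and the vehicle region of Dll1 covers the outer start site.

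The 3 target genes, which are 1.75 to 3.68 kb long, were named by 1 region in all. Hes1 (chr16:30065357-30067796), which encodes a repressor of neuronal differentiation, was named by 0 regions, and the nearest BIBR1532, vehicle and common regions lay 40.6, 108 and 226 kb from the gene. Hes5 (chr4:154960626-154962372), a repressor of the same family, was also named by 0 regions. A common region 1.24 kb beyond its end lay at the promoter of the neighbouring gene Pank4 and was assigned there. The nearest BIBR1532 and vehicle regions were 50.2 and 70.2 kb from Hes5. Hey1 (chr3:8663359-8667038), a Hes-related repressor, had 1 vehicle region at chr3:8667607-8667751, in the promoter class and centred 641 bp upstream of the start site. It was 145 bp wide and scored 1.86, at percentile 6.10 of its list. For each of Hes1 and Hes5, 8961 other genes of the 21887 protein-coding genes, the other of the pair included, were likewise named by 0 regions.

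By class, 6 of the 26 regions were promoters, against 17% of all regions. They were 3 of 4 common regions (51.9% in the whole list), 2 of 14 BIBR1532 regions (10.6%) and 1 of 8 vehicle regions (9.77%). A common promoter region was present at 2 of the 10 genes, Jag2 and Rbpj, where 14.2% of protein-coding genes had one. A promoter region of the BIBR1532 list was present at Dll1 and Rbpj (6.89% of protein-coding genes) and of the vehicle list at Hey1 (7.37%). The vehicle region over the outer start site of Dll1 is not counted here, since the deposited annotation called it intergenic. Regions that named a repeat numbered 3 of 26, in Notch2 (2) and upstream of Jag1, against 21.9% of all regions. Regions over 100 kb from the start site numbered 5, all of Jag1, against 18.7%.

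The widths of the members' regions ran from 120 to 977 bp, with medians of 168 bp for BIBR1532, 216 bp for vehicle and 170 bp for common regions. In the whole lists the medians were 247, 244 and 257 bp. By score, 6 of the 14 BIBR1532 regions lay below the tied score (24.3% of the list did), 5 at it and 3 above it (28.9%). Of the 8 vehicle regions 2 lay below (12.9%), 3 at it and 3 above (36.9%). The 3 above were those of Dll1, Notch1 and Notch3, 0.595 to 2.37 kb from the assigned start site. The 3 BIBR1532 regions above the tied score, at Jag1, Notch2 and Rbpj, were 18.8 to 224 kb from one. These distances rest on 3 regions in each list and were not set against those of the whole lists.

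**Figure D3:**
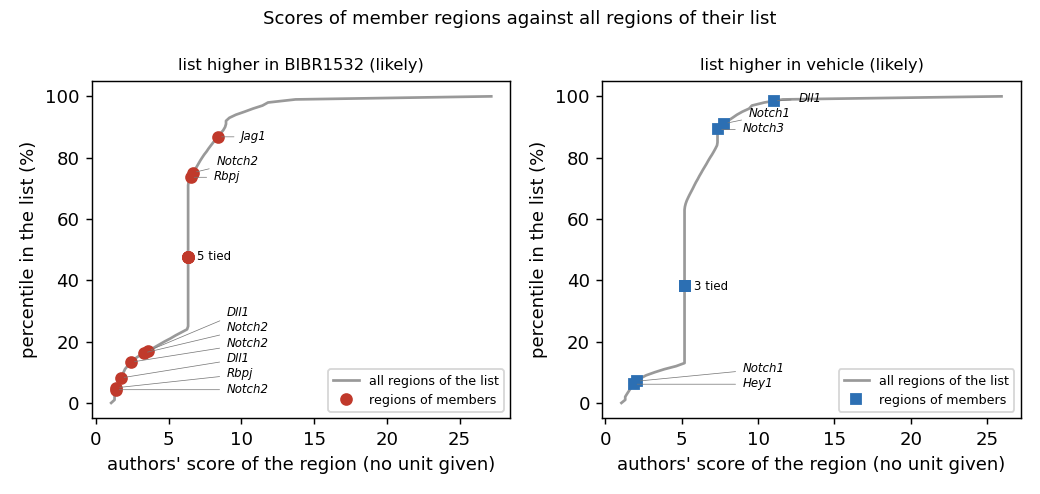
Authors' score of each condition-specific member region (horizontal axis, no unit given) against its percentile in its list (vertical axis, %), over the curve of all regions of the list, for the BIBR1532 list (left) and the vehicle list (right). The vertical step in each curve is the tied score, 6.34 or 5.19. The vehicle regions of Dll1, Notch1 and Notch3 sit above it, as do 36.9% of the vehicle list.

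Region counts of single genes were shared by other genes to very different degrees. The 3 counts of Notch2 (5 BIBR1532, 0 vehicle, 0 common) were those of 17 other protein-coding genes, those of Jag1 (5, 1 and 0) of 13 and those of Rbpj (2, 2 and 2) of 16. The counts of Dll1 (2, 1 and 0) were shared by 315, those of Notch1 (0, 2 and 1) by 214, those of Jag2 (0, 0 and 1) by 1374 and the single vehicle region of Notch3 and of Hey1 by 1897. No gene is named from these, since so few regions define no pattern.

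RefSeq promoter windows, each from 250 bases before to 50 bases from the start site on, were given for 8 of the 10 genes in 10 windows (all but Hes1 and Hey1). A common region overlapped 2 of the 10 windows, both of Rbpj, against 12.3% of all 32851 windows. A BIBR1532 region overlapped 2 (Dll1 and Rbpj, against 4.03%) and a vehicle region 1 (Dll1, against 4.64%). The windows of the members were rich in G and C, with a median of 67.7% and 25.5 CpG pairs, where all windows had medians of 52.7% and 7. Among windows that overlapped a region, those of Dll1 had 62.7 and 56.3% and those of Rbpj 64.7 and 67.0%. The windows without a region ran from 55.7% (Jag1) to 86.0% (Jag2), with Notch1, Notch3, Hes5 and Notch2 at 68.3, 70.0, 72.7 and 73.0%.

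Motifs were searched on both strands of these windows, and a match describes letters only. The Rbpj motif GTGGGAA was found in 1 member window, that of Hes5, with 2 matches, against 6.38% of all windows. The N-box CACNAG, bound by Hes proteins, was found in 4 of 10 member windows against 42.5%, and the G-run pair GGGNGGG in 5 against 48.1%. The E-box CACGTG and the telomeric unit TTAGGG were in 0 of 10, against 7.15% and 10.6%. A stretch that matches several motifs was counted for each. The stretch of the Hes5 promoter with both Rbpj motifs is shown as the textbook site of Notch response in a gene without a TERT region. It is chr4:154960687-154960856, plus strand, RefSeq of GRCm38.p6, 5′ to 3′, with the matches in capitals. They lie 226 to 220 and 83 to 77 bases before the start site, the first as the reverse complement.
Hes5 promoter stretch: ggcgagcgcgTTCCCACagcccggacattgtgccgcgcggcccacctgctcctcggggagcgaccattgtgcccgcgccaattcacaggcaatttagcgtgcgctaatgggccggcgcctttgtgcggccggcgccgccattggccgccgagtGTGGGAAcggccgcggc

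The other genes of the pathway were listed by role, 52 in all, and 42 were named by a region, against 59.1% of protein-coding genes. Common promoter regions were present at 12 of the 52 (23.1%, against 14.2% of protein-coding genes). The BIBR1532 list held 46 of their regions and the vehicle list 58, so 44.2% came from the former (exact 95% interval 34.5 to 54.3%), against 46.5% over all. Of the promoter regions among these, 1 was a BIBR1532 and 8 were vehicle regions, where the whole lists held 1711 and 1814.

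The genes that process the receptor had common promoter regions at 5 of 10. Among them were Psen2 (centred at -166 bp from the start site, negative values being upstream), Aph1a (89 bp), Aph1b (-105 bp) and Aph1c (-112 bp). These encode subunits of γ-secretase, the protease that releases the Notch intracellular part and also cuts the amyloid precursor. Of the other subunit genes, Psenen had a vehicle promoter region and Ncstn had 0 regions. Picking out γ-secretase was done after its values were seen. Aph1b and Aph1c are near-identical copies, so reads could have been divided between them and they may not be separate observations. Condition-specific regions of the 10 processing genes were 1 BIBR1532 and 9 vehicle regions, with the convertase gene Furin at 0 and 3. The BIBR1532 share was 10% (exact interval 0.253 to 44.5%, counting error only), against 46.5% over all condition-specific regions. Processing was 1 of several roles counted, and the interval makes no allowance for that. Whether the direction is particular to processing was not tested.

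The genes of ligand and receptor turnover had common promoter regions at 4 of 12: the ubiquitin ligase genes Mib1, Mib2 and Dtx4, and Numb, whose protein inhibits Notch in 1 daughter of a dividing progenitor. Mib1 and Mib2, which drive ligand uptake, each also had a vehicle promoter region. Fbxw7, which encodes the ubiquitin ligase adaptor for the nuclear Notch fragment, had 6 BIBR1532 and 5 vehicle regions, 9 of them tied, and Neurl1b had 4 and 4. Neurl1a had 0 and 3. Their balance over the 12 genes was 16 to 17.

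The nuclear cofactor genes had a common promoter region at 1 of 11, Ep300, which encodes an acetyltransferase of the Notch complex. The coactivator gene Maml3 had 4 BIBR1532 and 5 vehicle regions, and Maml2 had 2 and 4. Of 7 other target genes, Hes6, which in contrast to Hes1 favours neuronal differentiation, had a common promoter region, 357 bp downstream of its start site. Of 5 glycosylation genes, Pofut1, the fucosyltransferase of the receptors, had one. Of 7 other receptor and ligand genes none had one, and the atypical ligand genes Dner and Cntn1 had 3 and 3, and 2 and 4.

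**Figure D4:**
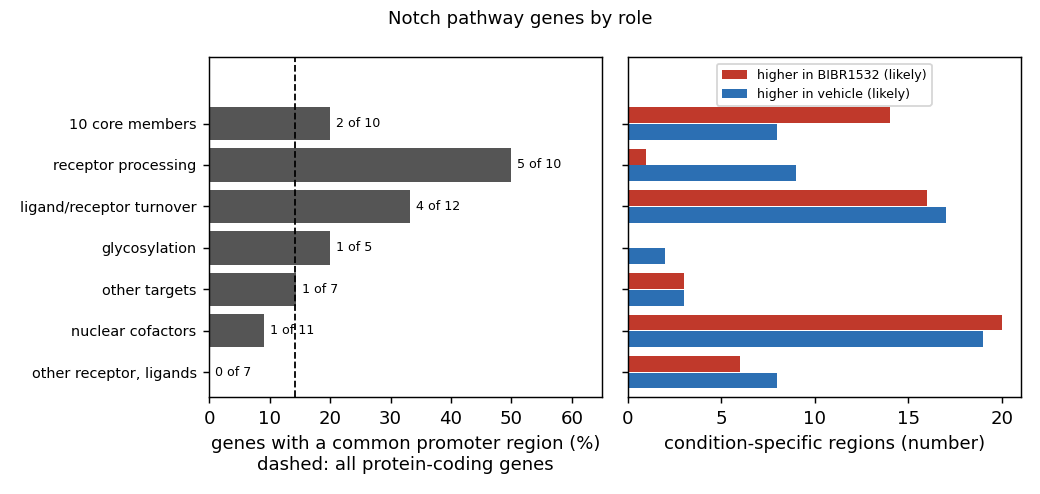
Notch pathway genes by role: left, the share of genes with a common promoter region (%), with the count beside each bar and the share over all protein-coding genes (14.2%) dashed; right, the number of BIBR1532 (red) and vehicle (blue) regions. Receptor processing has the highest bar (5 of 10) and 1 BIBR1532 against 9 vehicle regions, where 46.5% of all condition-specific regions were BIBR1532 regions.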

How the data were processed

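TERT CUT&Tag regions of 6 mouse neuron samples (3 vehicle, 3 BIBR1532, grouped by the dose in their titles) were used as 3 lists made by the authors from pooled triplicates. Base calling with CASAVA 1.8 and the tools Picard, Bowtie2 and MACS2 2.1.2 are listed, with mm10, per the submitters' processing notes. Per the file headers, the lists came from a bdgdiff directory with c1.0 in their names, and annotatePeaks.pl assigned each region a class and the gene of the nearest start site. The deposited score is the authors' value. No source used here gives the scaling of the pools. That the score of MACS2 bdgdiff is a log likelihood ratio is known from the program. The condition-specific lists were decoded from UTF-7.

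Members were matched on the gene name. All 10 matched the RefSeq table of GRCm38.p6. Regions were also counted by position, with centres between a gene's ends, or up to 5 kb outside for an alternative. Intervals are exact binomial at 95%. No test was made: there are no replicate values. Members, lists, motifs and comparisons were chosen with earlier results of these data known. Other pathway genes are named where they had a common promoter region or at least 3 condition-specific regions, except for some that are not reported here. Psenen and Ncstn were named after their values were seen. Work was done in Python 3.11.15 with scipy 1.17.1, numpy 2.4.6, pandas 2.3.3 and matplotlib 3.10.9, and counting was tested on simulated data.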

Additional observations from a re-analysis of the deposited data

How the results depend on the processing

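No paired analysis was possible because the deposited lists pool the 3 samples of each condition, and for the same reason no sample could be left out. Of 51 values recomputed under alternative settings, 41 kept within 1.5 times the count given or inside the exact interval of the share. Settings on the score or on tied regions leave the common list untouched, so its counts there could not change. The exact interval of the BIBR1532 share was wide (40.7 to 82.8%), so staying inside it says little. Without the tied regions the 10 genes had 9 BIBR1532 and 5 vehicle regions. With widths of at least 500 bp they had 1, 1 and 0 regions in the BIBR1532, vehicle and common lists. They then had 0 genes with a common promoter region and 0% promoter regions. The same limit keeps only 15.8, 15.2 and 14.9% of all regions of these lists. Within 10 kb of a start site they had 3 BIBR1532 regions and 46.2% promoter regions, since this setting leaves out distal regions by construction. The BIBR1532 share there was 33.3% of 9 regions. Over all condition-specific regions the same limit gave 49.3%, against 46.5% without it. In the other settings the BIBR1532 share of the 10 genes lay between 50 and 70%, and the 50% came from 2 regions. Counting regions by distance (at most 1 kb) instead of by class gave 15 of the other 52 genes with a common region at the promoter. The share of all protein-coding genes was not computed under this rule, and the 14.2% given by class is not a like comparison. The unknown depth of the pools limits every absence of a region.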
